A study of Homo sapiens with 8 samples.

Results

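H9 human embryonic stem cells that carried an shRNA against eIF2A were compared with H9 cells that carried a control shRNA, by RNA sequencing of polyadenylated RNA. These are 4 of the 8 libraries in the series, chosen by their labels: 2 with control shRNA and 2 with eIF2A shRNA, numbered in each group as set 1 and set 2. The other 4 libraries come from HEK293T, a line derived from embryonic kidney, treated with sodium arsenite and carrying either siRNA against eIF2A or its control, and they serve here only as a comparison. The labels name no stress treatment for H9 and do not explain what a set is. Nothing in them ties the replicates to separate cultures. The p-values therefore measure the spread of these samples alone, and that spread may be technical. The shRNA sequences, the number of hairpins and the time after their introduction were not given.

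eIF2A is a single protein that can bring the initiator tRNA to the ribosome, a task mostly done by the 3-subunit factor eIF2. It has been linked to initiation on selected mRNAs and under stress, when eIF2 is inhibited by phosphorylation. The libraries here measure mRNA levels and not translation. H9 cells are pluripotent and depend on FGF2 and on Activin or Nodal signals.

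H9 libraries held 21837052 to 23848357 gene counts. Of 8 pluripotency markers measured, 8 stood at 10 CPM or more. CPM are counts divided by the library total times an edgeR scaling factor (TMM), not by the total alone. This factor was lower in the controls than in the knockdown libraries, so small differences in CPM between the groups depend on it. Markers of other cell types were lower or mixed. Of 18 neural markers 3 reached 10 CPM, of 18 mesoderm and endoderm markers 1 did (KDR), of 16 trophoblast and amnion markers 4 did, and of 18 fibroblast markers 10 did. The summed level of the pluripotency markers was 5568 and 5585 CPM in the controls and 5259 and 5347 CPM with eIF2A shRNA. The summed neural markers stood at 609 and 627 CPM in the control libraries and 691 and 677 CPM in the knockdown, and the summed fibroblast markers at 1808 and 1832 CPM against 1704 and 1703 CPM. The summed trophoblast and amnion markers stood at 1399 and 1431 CPM against 1035 and 1010 CPM, to which the keratins KRT8 and KRT18 gave most. The mesoderm and endoderm markers stood at 46.2 and 47.6 CPM against 85.0 and 78.9 CPM. KDR alone, at 28.97 and 29.02 CPM against 68.8 and 64.5 CPM, made up the rise of that sum. CDX2, HAND1 and ELF5, which define early trophoblast or mesoderm, were at 0 in all 4 libraries. Reads without a counted feature made up 18.84 and 18.39% of the listed reads in the controls and 20.84 and 20.63% with eIF2A shRNA. The part of these differences in the results was not tested.

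The change between the groups followed the base composition and the length of the transcripts. The 4 stretches of coding sequence shown here give a reader the contrast, each being 90 bases from the middle of the coding sequence of the GENCODE v29 (GRCh38) transcript linked to the gene, with G and C in capitals. IPO7, a nuclear import receptor on chromosome 11, had the largest rise as measured among genes under 45% GC with at least 2000 coding bases and a mean above 20 CPM. ARF5, a small GTPase of vesicle transport on chromosome 7, had the largest fall among genes of at least 55% GC with under 1000 coding bases. EIF2A, on chromosome 3, and CDKN1A, on chromosome 6, moved against the trend. IPO7 and ARF5 were chosen after their values were seen, and CDKN1A for its change against the trend.
IPO7: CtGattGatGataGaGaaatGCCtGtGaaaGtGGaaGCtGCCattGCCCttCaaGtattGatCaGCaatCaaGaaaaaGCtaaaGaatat
ARF5: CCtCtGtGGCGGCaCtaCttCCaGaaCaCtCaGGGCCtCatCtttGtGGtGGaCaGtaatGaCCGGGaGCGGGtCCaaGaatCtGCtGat
EIF2A: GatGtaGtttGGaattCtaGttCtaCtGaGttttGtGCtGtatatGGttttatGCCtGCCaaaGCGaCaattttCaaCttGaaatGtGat
CDKN1A: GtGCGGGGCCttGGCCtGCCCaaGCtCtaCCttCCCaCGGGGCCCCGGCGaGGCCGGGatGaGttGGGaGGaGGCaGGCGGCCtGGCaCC

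G and C made up 34 of the 90 bases in IPO7, 50 in ARF5, 32 in EIF2A and 67 in CDKN1A. IPO7 stood at 24.5 and 21.6 CPM in the control libraries and 82.9 and 85.2 CPM with eIF2A shRNA. ARF5 stood at 364 and 375 CPM in the control libraries and 126 and 124 CPM in the knockdown. In neither gene did the groups overlap.

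As measured, 10581 of 13828 genes differed between the groups by edgeR's quasi-likelihood test at a Benjamini-Hochberg adjusted p under 0.05, 5466 (39.5%) higher and 5115 (37%) lower with eIF2A shRNA. Genes that pass this test are named called genes from here on. The rises were larger than the falls: 2278 called genes were at least 2-fold higher and 112 at least 2-fold lower. The median log2 change was 1.0005 for the 1471 genes with 35 to 40% GC in their transcript and -0.42 for the 663 genes with 65% or more. It ran from -0.50 for the 754 transcripts under 1000 nt to 0.86 for the 780 of 8000 nt or more. Both features together sorted the genes further. Of 1391 genes with under 45% GC and at least 2000 coding nt, 95.0% were called higher, with a median log2 change of 1.28. Of 1565 genes with at least 55% GC and under 1000 coding nt, 75.2% were called lower, with a median of -0.49.

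Across 13767 genes, GC content and the change as measured had a rank correlation of -0.70, and transcript length and that change one of 0.48. These correlations describe genes of the same 4 libraries, which are not independent replicates. The correlation with GC content was -0.69 in set 1 alone and -0.70 in set 2 alone. Between the 2 controls it was 0.18, between the 2 knockdown libraries -0.03, and for the change in HEK293T -0.11. The trend was thus present in each H9 set and lay between the groups rather than within them. It was not tested whether it arose in the cells or in library preparation: the libraries of each group share both the shRNA and any step that differed between the groups, and these cannot be told apart.

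**Figure D1:**
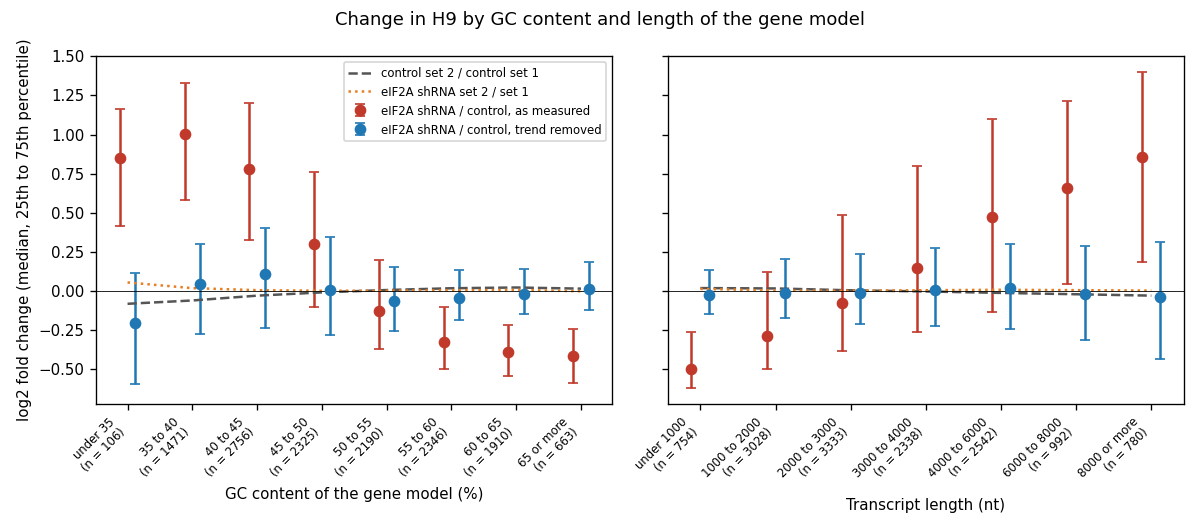
Median log2 fold change with the 25th to 75th percentile (vertical axis) by GC content and transcript length of the gene (horizontal axes, number of genes in parentheses), as measured in red and with the trend removed in blue; dashed and dotted lines give the median change between the 2 libraries of 1 group. As measured, the medians fall from 1.0005 at 35 to 40% GC to -0.42 at 65% or more, and the lines within groups stay near 0.

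Each gene was therefore compared with genes of like GC content and transcript length, by removing the smooth trend from each library. The results from here on are log2 changes with that trend removed, ± the standard error (SE) of the fit, unless called as measured. They are changes relative to similar genes and not changes of the amount in the cell. With the trend removed, 7374 of 13767 genes (53.6%) were called, 3333 higher (24.2%) and 4041 lower (29.4%). A change of at least 1.5-fold was reached by 1020 called genes that were higher (7.41%) and 876 that were lower (6.36%). Of the 2274 genes called at least 2-fold higher as measured, 212 were still called at least 2-fold higher, 1374 were called higher at any size, 895 were not called and 5 were called lower. Of the 111 called at least 2-fold lower as measured, 83 were still called lower, 39 of them at least 2-fold.

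A gene's transcript length depends on the gene model. A second reference therefore used coding length in place of transcript length, and a gene is said to hold on both references where it was called and changed at least 1.5-fold in the same direction with each. In all, 659 genes (4.79%) held as higher and 433 (3.15%) as lower. Of these, 582 of the higher and 262 of the lower genes were also called in the same direction as measured. With the trend removed the change still followed a gene's mean level, with a rank correlation of -0.23, and of -0.20 with coding length. Shares over all genes are therefore not shares over genes of like level. None of the 12 largest rises moved by more than 1.5 times with the second reference, against 10 of the 12 largest falls. SDHC, a subunit of respiratory complex II with a model of 13566 nt, fell by 1.61 with transcript length and by 0.60 with coding length. RPL37, a ribosomal protein with a model of 7686 nt and many near-identical pseudogenes, fell by 1.66 and by 0.55.

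The targeted transcript was lower in both knockdown libraries. EIF2A stood at 15.8 CPM in control set 1 and 14.8 CPM in control set 2, and at 5.04 and 4.67 CPM in the eIF2A shRNA libraries. The groups did not overlap. As measured this left 31.8% of the control level. Genes like EIF2A in GC content (39.7%) and length (2083 nt) rose on average, so with the trend removed its log2 change was -2.23 ± 0.11 (edgeR adjusted p = 1.2e-18), or 21.2% of control, and -2.65 with coding length.

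At mean levels of 5 CPM or more, the largest rise was that of HS6ST2, an enzyme that adds sulfate to heparan sulfate chains. It stood at 3.87 and 2.87 CPM in the control libraries and 11.2 and 11.3 CPM with eIF2A shRNA, a log2 change of 2.01 ± 0.13. Next came PHACTR2, a regulator of phosphatase 1 and actin (1.72 ± 0.090), and GDF15, a secreted stress factor of the TGF-beta superfamily (1.71 ± 0.10). CDKN1A and JUN, described further on, stood among the 12 as well. Others were DUSP8, a phosphatase of MAP kinases (1.51), STON2, an endocytic adaptor (1.47), and HMGA2, a chromatin protein of embryonic cells (1.36), with PLK2, BTG2 and NPIPB3. HMGA2 rose from 47.9 and 45.1 CPM to 93.9 and 94.5 CPM, and its change of 1.36 was 0.37 with the length of the single linked transcript. NPIPB3 (1.38) belongs to a family of near-identical copies and is uncertain.

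Of the 12 largest falls, 2 kept their size on both references. PECR, a reductase of fatty acid metabolism in the peroxisome, stood at 10.9 and 12.01 CPM in the control libraries and 3.996 and 3.74 CPM with eIF2A shRNA, a log2 change of -1.84 ± 0.12 and -1.87 with coding length. G3BP1, a core protein of stress granules, stood at 117 and 111 CPM in the control libraries and 73.5 and 81.0 CPM in the knockdown. As measured G3BP1 fell by 0.56, and with the trend removed by 1.70 ± 0.038, since transcripts of its low GC content (39.9%) and length (6522 nt) rose on average.

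**Figure D2:**
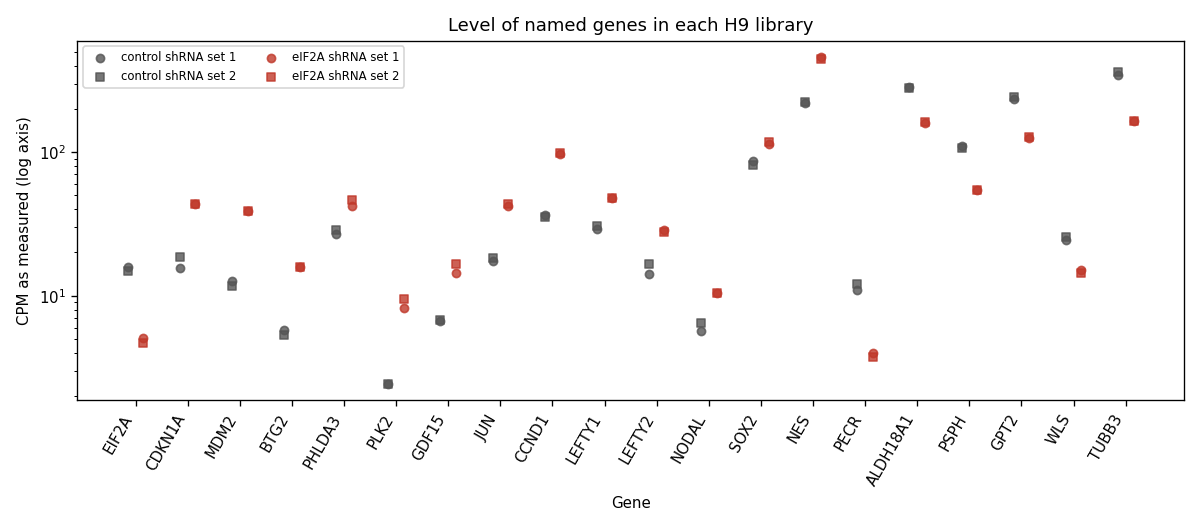
CPM as measured (vertical log axis) of 20 named genes in each of the 4 H9 libraries; grey marks are the controls, red marks the eIF2A shRNA libraries, circles set 1 and squares set 2. The libraries of a group lie close together and the groups do not overlap for any gene shown, EIF2A falling from 15.8 and 14.8 to 5.04 and 4.67 CPM. For the genes taken as largest rises or falls, the choice required groups that do not overlap with the trend removed.

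CDKN1A, which encodes the cyclin-dependent kinase inhibitor p21, stood at 15.5 and 18.7 CPM in the control libraries and 43.2 and 43.6 CPM in the knockdown. Its log2 change was 1.68 ± 0.065 (edgeR adjusted p = 4.6e-21), and it is a gene of 57.7% GC, a class that fell as measured. MDM2, a ubiquitin ligase, stood at 12.7 and 11.6 CPM in the control libraries and 38.7 and 38.6 CPM in the knockdown, a change of 1.05 ± 0.069, and of 1.67 as measured. With the single linked transcript the change of MDM2 was 0.58. BTG2, an antiproliferative cofactor of mRNA decay, rose from 5.79 and 5.34 CPM to 15.9 and 15.8 CPM (1.45 ± 0.10). All libraries of the knockdown lay above both controls for these 3 genes. For CDKN1A and BTG2 the choice of the largest rises required this with the trend removed. PLK2, a kinase of the stress response, rose by 1.48 ± 0.15, and PHLDA3, an inhibitor of AKT signalling, by 1.12 ± 0.057.

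Among genes that promote apoptosis, named after their values were seen, BBC3 (PUMA) rose from 21.2 and 21.2 CPM to 29.5 and 28.8 CPM, a log2 change of 0.92 ± 0.063. PMAIP1 (NOXA) rose by 0.60 ± 0.063, and by 1.15 with coding length. BAX, the pore-forming member, had a change of 0.28 ± 0.034 without the trend but -0.16 as measured, so its direction depends on the reference. Of 14 further genes of the BCL2 family, a list without BBC3, PMAIP1 and BAX, 1 was called higher and 7 lower, against 24.2% and 29.4% of all genes, and none held at 1.5-fold on both references.

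Several cell cycle regulators of G1 rose with CDKN1A. The list of G1 cyclins, kinases and inhibitors also holds E2F8. Of its 26 genes measured, 12 were called higher and 4 lower, against 24.2% and 29.4% of all genes. On both references 6 held as higher and none as lower, against 4.79% and 3.15%. CCND1, the cyclin that activates CDK4 and CDK6, rose from 36.2 and 35.1 CPM to 96.2 and 98.8 CPM (1.19 ± 0.044). CDKN1B, the inhibitor p27, rose from 9.71 and 10.7 CPM to 16.6 and 19.2 CPM (0.84 ± 0.092, and 0.59 with the single linked transcript). E2F8, a repressor of E2F targets, rose by 0.83 ± 0.12. Activators and inhibitors of the cycle were thus both among the genes that rose. The 40 mitosis genes had a median of 0.51 as measured but of 0.01 with the trend removed and -0.12 with coding length, and the 36 DNA replication genes had medians of 0.13, 0.00 and -0.10. None of either list held at 1.5-fold on both references in either direction.

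Immediate early genes, transcription factors that growth factors and stress switch on without new protein synthesis, were divided. Of 24 measured, 10 were called higher and 5 lower, against 24.2% and 29.4% of all genes, and 7 held as higher on both references, against 4.79%. JUN, a subunit of AP-1, rose from 17.4 and 18.2 CPM to 41.8 and 43.5 CPM (1.44 ± 0.060). FOSL1, another AP-1 subunit, rose by 0.99 ± 0.098, and ATF3, a stress-induced repressor, by 0.61 ± 0.070. EGR1, an early target of ERK signalling, fell from 9.33 and 9.24 CPM to 5.08 and 6.33 CPM (-0.54 ± 0.12). KLF6, a zinc finger factor of the same class, rose from 9.05 and 6.53 CPM to 14.6 and 12.8 CPM (0.65 ± 0.11), and was not called when the single linked transcript set its length (0.20). The members thus did not move in 1 direction.

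Nodal is a TGF-beta family ligand that acts through SMAD2 and SMAD3 and induces its own inhibitors, LEFTY1 and LEFTY2. Of 25 genes measured in the Nodal and TGF-beta list, 10 were called higher and 3 lower, against 24.2% and 29.4% of all genes. On both references 5 held as higher and none as lower, against 4.79% and 3.15%. NODAL rose from 5.69 and 6.43 CPM to 10.4 and 10.4 CPM (1.12 ± 0.11). LEFTY1 rose from 29.2 and 30.6 CPM to 47.6 and 48.0 CPM (1.12 ± 0.052), and LEFTY2 from 14.1 and 16.7 CPM to 28.5 and 27.9 CPM (1.23 ± 0.072). The groups did not overlap for any of the 3. CER1, a secreted inhibitor of Nodal, and TGFBR3, a co-receptor, were the other 2, named after their values were seen, at means below 5 CPM, with changes of 1.72 ± 0.24 and 1.41 ± 0.25. SMAD7, an inhibitory SMAD, rose by 0.53 ± 0.074. The list's median was 0.07, and 0.17 with coding length.

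The core pluripotency genes did not move as a group. Of 27 measured, 10 were called higher and 8 lower, against 24.2% and 29.4% of all genes, and 2 held as higher and 1 as lower on both references, against 4.79% and 3.15%. POU5F1 stood at 162 and 196 CPM in the control libraries and 141 and 115 CPM in the knockdown. It was the most variable of the core factors between libraries. Its change of -0.22 ± 0.18 did not pass the test (edgeR adjusted p = 0.44). Without control set 1 the change was -0.34. As measured it was -0.48, not called, and with the single linked transcript -0.51, so its size depends on the reference. SOX2 rose from 86.5 and 80.7 CPM to 114 and 118 CPM (0.46 ± 0.037). NANOG stood at 52.0 and 50.8 CPM against 48.2 and 50.1 CPM, with a change of -0.45 with transcript length, -0.20 with coding length and -0.07 as measured, the last not called. LIN28A fell by 0.49 with transcript length and stood at -0.02 with coding length, where it was not called. DPPA4, a chromatin-associated factor of pluripotent cells, stood at 478 and 455 CPM in the control libraries and 492 and 518 CPM in the knockdown. It was called higher as measured (0.11) and lower with the trend removed (-0.60 ± 0.023). ZFP42, a marker of the ground state, fell from 254 and 254 CPM to 206 and 204 CPM (-0.84 ± 0.026). KLF4, named after its value was seen, rose by 2.15 ± 0.29 at a mean of 1.43 CPM.

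Of 32 genes of the FGF receptor and ERK pathway, 7 were called higher and 16 lower, against 24.2% and 29.4% of all genes, with 2 and 0 held on both references, against 4.79% and 3.15%. The share called higher was thus near that of all genes. FGF2, the ligand that maintains these cells in culture, rose from 14.6 and 13.99 CPM to 26.9 and 30.9 CPM (0.87 ± 0.076), but stood at -0.16, not called, with the single linked transcript. PTPN11, the phosphatase SHP2 that passes receptor signals to RAS, rose from 18.8 and 16.9 CPM to 51.2 and 52.3 CPM (0.77 ± 0.060). DUSP6, a phosphatase that ERK induces and that switches ERK off, fell from 105 and 95.9 CPM to 84.1 and 81.4 CPM, by 0.86 with transcript length and by 0.53 with coding length. In the WNT pathway 9 of 32 were called higher and 13 lower, against the same 24.2% and 29.4%. LRP6, a co-receptor for WNT (0.86 ± 0.087), and AXIN2, a target of the pathway that limits it (0.80 ± 0.064), rose. WLS, which carries WNT ligands to the cell surface, fell from 24.6 and 25.6 CPM to 14.98 and 14.4 CPM (-0.94 ± 0.072). FZD3, a WNT receptor with a long, GC-poor transcript, was called higher as measured (0.67) and lower with the trend removed (-0.80 ± 0.086).

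Neural markers moved in opposite directions. NES, an intermediate filament of neural progenitors that pluripotent cells also express, rose from 220 and 223 CPM to 460 and 446 CPM (1.17 ± 0.024). NCAM1, a neural adhesion molecule, rose by 0.90 ± 0.12, and by 1.63 with the single linked transcript. TUBB3, a neuronal tubulin, fell from 344 and 361 CPM to 164 and 165 CPM (-0.68 ± 0.026). SLITRK5, a synaptic membrane protein that is not on the neural list, was called higher as measured (0.91) and lower with the trend removed (-0.71 ± 0.12), with a model of 21103 nt. Of 12 neural markers that could be tested, 2 were called higher and 3 lower, against 24.2% and 29.4% of all genes, and PAX6, which defines neuroectoderm, stayed below 1 CPM in each library.

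ATF4 is the transcription factor whose translation rises when eIF2 is phosphorylated, and it drives amino acid synthesis and stress genes. Of 32 genes in the list, 6 were called higher and 19 lower, against 24.2% and 29.4% of all genes, and 2 held as higher and 6 as lower on both references, against 4.79% and 3.15%. The list's median was -0.29, -0.14 with coding length and -0.32 as measured. ALDH18A1, an enzyme of proline synthesis, fell from 283 and 279 CPM to 160 and 161 CPM (-1.04 ± 0.026). PSPH, the last enzyme of serine synthesis, fell from 110 and 107 CPM to 54.5 and 54.3 CPM (-0.998 ± 0.038). GPT2, a mitochondrial alanine transaminase, fell from 236 and 241 CPM to 126 and 127 CPM (-0.78 ± 0.028).

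ATF4 mRNA stood at 949 and 964 CPM in the control libraries and 625 and 612 CPM in the knockdown, a change of -0.33 ± 0.020. PCK2, a mitochondrial enzyme of gluconeogenesis (-0.64 ± 0.025), and ASNS, asparagine synthetase (-0.63 ± 0.029), also fell and were named after their values were seen. DDIT3, the stress factor CHOP, stood at 11.4 and 12.8 CPM in the control libraries and 13.1 and 12.4 CPM in the knockdown, groups that overlap as measured. Its change was 0.35 ± 0.091 with the trend removed, 0.08 and not called as measured, and -0.05 when GC content alone was removed. NUPR1, a small stress-induced chromatin protein named after its value was seen, held as lower (-0.71 ± 0.29) at a mean of 1.41 CPM, and leaving out any of 3 of the 4 libraries ended its call. The 2 members that held as higher were GDF15 and ATF3, which respond to other stress pathways too. The enzymes of amino acid synthesis and the secreted stress factor of the list thus moved in opposite directions.

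In the endoplasmic reticulum, HSPA5, the main chaperone of its lumen, rose from 317 and 308 CPM to 594 and 581 CPM, a change of 0.91 as measured that shrank to 0.32 ± 0.023 without the trend. DNAJC3, a co-chaperone that also inhibits eIF2 kinases, rose from 3.69 and 4.75 CPM to 17.9 and 17.1 CPM (0.96 ± 0.12, and 2.06 as measured). Of 30 chaperones and folding enzymes 12 were called higher and 3 lower, against 24.2% and 29.4% of all genes, with 1 held as higher on both references, against 4.79%. The median was 0.61 as measured and 0.10 with the trend removed. STT3A, a catalytic subunit of N-glycosylation, stood at 0.00 as measured, not called, and fell by 0.79 ± 0.029 without the trend.

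The translation machinery was examined next, since eIF2A acts there. The list of initiation factors includes EIF2A and also EIF4EBP2, which binds EIF4E. Of its 50 genes, 16 were called higher and 24 lower, against 24.2% and 29.4% of all genes. On both references none held as higher and 5 as lower, of which 1 is EIF2A itself, against 4.79% and 3.15%. DENR, which with MCTS1 recycles ribosomal subunits and can also deliver initiator tRNA, stood at 46.3 and 44.6 CPM in the control libraries and 33.7 and 35.8 CPM in the knockdown. It fell by 1.17 ± 0.051 with the trend removed, by 0.80 with coding length and by 0.39 as measured. Its partner MCTS1 fell by 0.40 ± 0.051, and EIF2D, a single-chain relative of that pair, by 0.32 ± 0.042. EIF2B2, a subunit of the exchange factor that recharges eIF2, fell by 0.996 ± 0.043, and by 0.34 as measured.

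EIF4E, the cap-binding factor of the cytoplasm, stood at 27.3 and 26.5 CPM in the control libraries and 34.9 and 33.8 CPM in the knockdown. Its change was 0.35 ± 0.057 with the trend removed, 0.13 and not called with coding length, -0.36 when GC content alone was removed and -0.84 with the single linked transcript, so its direction depends on the reference. EIF5B, which joins the ribosomal subunits and can also bind the initiator tRNA complex, rose from 12.3 and 11.02 CPM to 31.1 and 28.6 CPM as measured. With the trend removed its change was 0.25 ± 0.079, and with coding length 0.01, not called. Its call was also lost without control set 2 (0.21) and without knockdown set 1 (0.18).

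EIF2S1, the subunit of eIF2 that stress kinases phosphorylate, was called higher as measured (0.70) and lower with the trend removed (-0.24 ± 0.049), and was not called with coding length (-0.05). Of the nuclear cap-binding complex, with which the series is concerned, NCBP2 rose by 0.50 ± 0.053 and by 0.72 with coding length. NCBP1 rose by 0.92 as measured but stood at -0.09 ± 0.057 with the trend removed (edgeR adjusted p = 0.20) and at -0.14 with coding length, where it was called lower (edgeR adjusted p = 0.045). Of DENR, MCTS1 and EIF2D, 3 alternative carriers of initiator tRNA, none was higher. EIF5B, which can also bind the initiator tRNA complex, was called higher (0.25) but not with coding length (0.01).

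Ribosomal protein mRNAs, which are mostly short, fell as measured, with medians of -0.58 over 46 genes of the large subunit and -0.59 over 31 of the small subunit. The summed level of the large subunit was 78140 and 79860 CPM in the controls and 54190 and 54340 CPM with eIF2A shRNA. With the trend removed the medians were -0.17 and -0.12, and with coding length -0.28 and -0.25. Of the large subunit 35 genes were called lower and 1 higher, and of the small subunit 25 lower and 0 higher, against 29.4% and 24.2% of all genes, but 1 and 0 held as lower at 1.5-fold on both references. Many have near-identical pseudogenes. Levels of these mRNAs are high, and the change followed level even with the trend removed (rank correlation -0.23). A comparison with genes of like level was not made. RPS6, the small subunit protein that S6 kinase phosphorylates, fell by 0.41 ± 0.019 and by 0.23 as measured, and stood at 0.02 when length alone was removed. Of 75 mitochondrial ribosomal proteins 38 were called lower and 10 higher, against 29.4% and 24.2% of all genes. The 71 respiratory chain subunits had 40 and 7. The list medians were -0.09 and -0.11. On both references 3 and 4 genes held as lower, against 3.15% of all genes, and none as higher. NDUFA9, UQCRFS1 and MRPL22, given next, were among those that held. NDUFA9, of complex I, fell by 1.40 ± 0.034 and by 0.89 with coding length, UQCRFS1, of complex III, by 1.11 ± 0.030 and 0.71, and MRPL22 by 1.12 ± 0.048 and 0.66.

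Of 25 sterol synthesis genes 17 were called lower and 4 higher, against 29.4% and 24.2% of all genes, with a median of -0.21, and FDFT1, squalene synthase, fell from 736 and 747 CPM to 502 and 508 CPM (-0.64 ± 0.021). Glycolysis and hypoxia genes (17 of 30 called lower, 5 higher) and proteasome subunits (18 of 36 lower, 6 higher) had medians of -0.13 and -0.06. The shares of all genes were again 29.4% and 24.2%. On both references 1 sterol, 1 glycolysis and hypoxia and 2 proteasome genes held as lower, against 3.15% of all genes. None of these lists had a gene that held as higher. FDFT1, PGK1 and PSMA5 were among those that held as lower. PGK1, a glycolytic enzyme, fell by 1.07 ± 0.021 and by 0.88 with coding length, and by 0.32 as measured. PSMA5, a subunit of the proteasome core, fell by 1.43 ± 0.032 and by 1.06 with coding length.

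For large complexes of the nucleus the rise as measured was mostly that of genes with like GC content and length. As measured, 18 of 22 cohesin and condensin genes and 27 of 30 chromatin remodelling genes were called higher, against 39.5% of all genes. Their medians were 1.13 and 1.04. With the trend removed the medians were 0.13 and 0.19, and with coding length -0.02 and -0.01. The 36 homologous recombination and Fanconi genes likewise went from 0.69 to 0.10 and -0.07. Members that held as higher on both references were BAZ1B, a subunit of a remodelling complex (0.90 ± 0.048), and, among 30 nucleoporins, NUP50 (1.10 ± 0.056), which stood at 24.1 and 21.3 CPM in the control libraries and 56.1 and 56.8 CPM in the knockdown and had a change of 0.45 with the single linked transcript. SRSF1, a splicing factor and 1 of 35 SR proteins and hnRNPs, rose from 195 and 183 CPM to 278 and 293 CPM (0.72 ± 0.030), but was called lower with the single linked transcript (-0.12). At the cell surface ITGA6, an integrin that binds laminin, rose from 28.7 and 28.7 CPM to 99.6 and 100.1 CPM (0.99 ± 0.046, and 1.80 as measured). AFDN, which ties adherens junctions to actin, rose by 0.97 ± 0.045, and OCLN, a tight junction protein, by 0.73 ± 0.11. With the single linked transcript the change of OCLN was 0.45. Of 13 fibroblast markers tested 6 were called higher and 4 lower, against 24.2% and 29.4% of all genes. The collagens COL6A1 (0.56 ± 0.025) and COL1A1 (0.56 ± 0.035), both GC-rich, rose, but stood at -0.05 and -0.16 when length alone was removed.

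Of 51 lists, 39 had a median within 0.2 of 0 on the log2 scale with both references. The immediate early genes lay above it with both (0.21 and 0.30), but their median as measured was 0.04, with 8 called higher and 9 lower. The neural markers lay below it with both (-0.31 and -0.27), over 12 genes most of them below 10 CPM, and their median was 0.057 with a minimum of 5 CPM in 2 libraries.

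**Figure D3:**
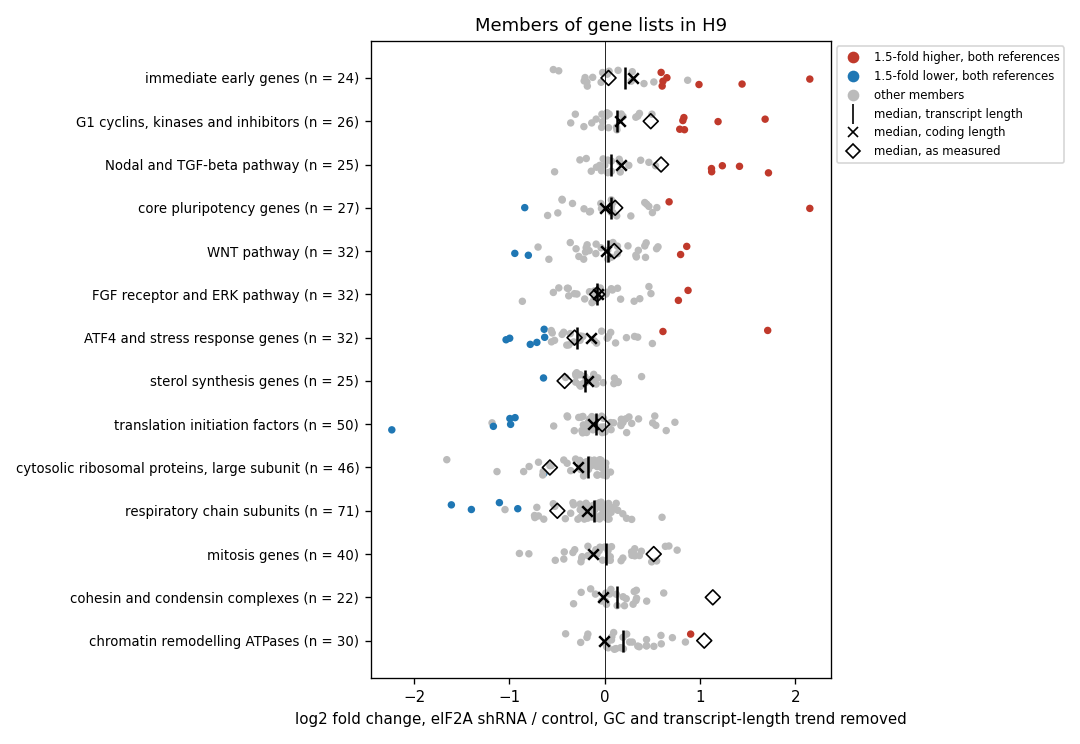
Log2 change with the trend removed (horizontal axis) of each tested member of 14 gene lists (rows); red and blue points held at 1.5-fold or more on both references, bars, crosses and open diamonds are the list medians with transcript length, with coding length and as measured. The medians of cohesin and condensin and of chromatin remodelling genes move from 1.13 and 1.04 as measured to 0.13 and 0.19. The row labelled remodelling ATPases also holds other subunits, such as BAZ1B.

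**Figure D4:**
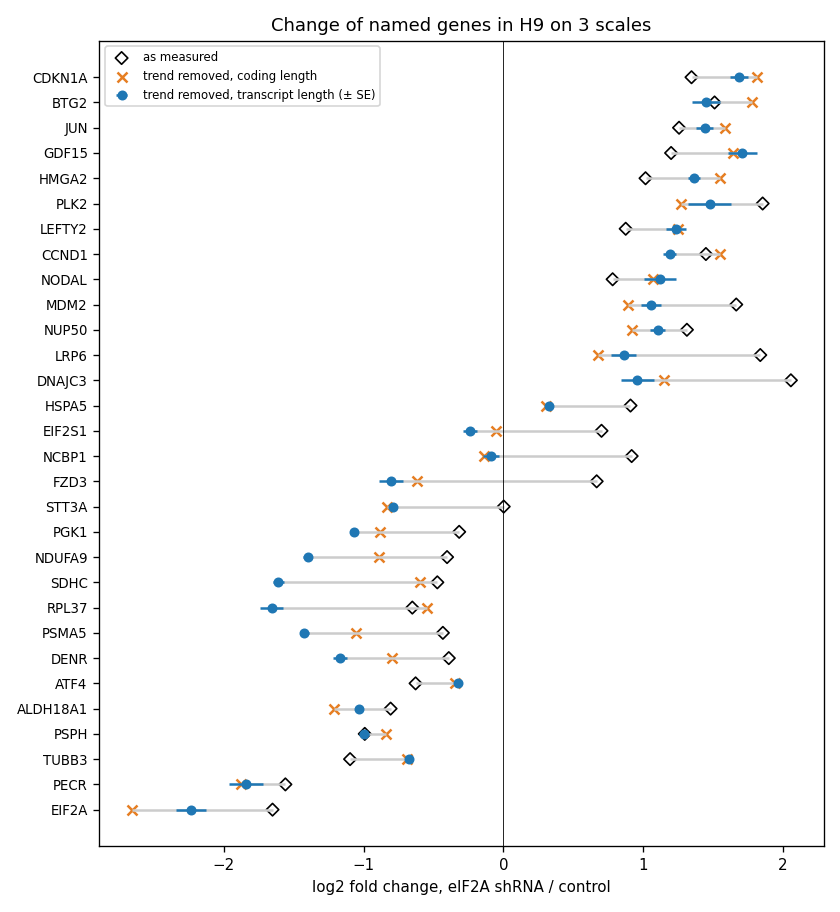
Log2 change of 30 named genes (rows) as measured (open diamonds), with the trend removed by GC content and transcript length (blue, ± SE) and by GC content and coding length (crosses). CDKN1A, BTG2 and JUN lie right of 1 on each scale, whereas NCBP1 and EIF2S1 lie at 0.92 and 0.70 as measured and near 0 or below with the trend removed.

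The change in H9 was set against that of HEK293T by fitting all 8 libraries and testing the difference of the 2 changes. The lines differ at once in cell type, arsenite and the use of siRNA in place of shRNA, which cannot be told apart. Of 14496 genes, 5797 (40%) were called for the difference, 2492 higher in H9 (17.2%) and 3305 lower (22.8%). Of the 1092 H9 genes that held on both references, 761 were called for it. They were chosen for their change in H9, which is part of the difference, so this share cannot be set against that of all genes. EIF2A fell by 1.72 in HEK293T, and the difference of -0.51 ± 0.15 was called (edgeR adjusted p = 0.0054). In H9 its change was -1.65 as measured and -2.23 with the trend removed, so the size of this difference depends on the trend removal.

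MDM2 had a change of -0.60 in HEK293T, so that the difference was 1.66 ± 0.095, and CDKN1A a change of 0.46, with a difference of 1.22 ± 0.096. JUN, at 994 CPM in HEK293T, had a change of -0.28 there and a difference of 1.72 ± 0.063. For the ATF4 list the medians were -0.29 and -0.01, with 3 called higher in H9 and 17 lower, against 17.2% and 22.8% of all genes. ALDH18A1 had a change of 0.10 in HEK293T and a difference of -1.13 ± 0.043. EIF2D fell by about as much in both lines, with a change of -0.35 in HEK293T and a difference of 0.03 ± 0.057 that was not called. NODAL, LEFTY1 and LEFTY2 had means below 1 CPM in HEK293T and allow no comparison.

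**Figure D5:**
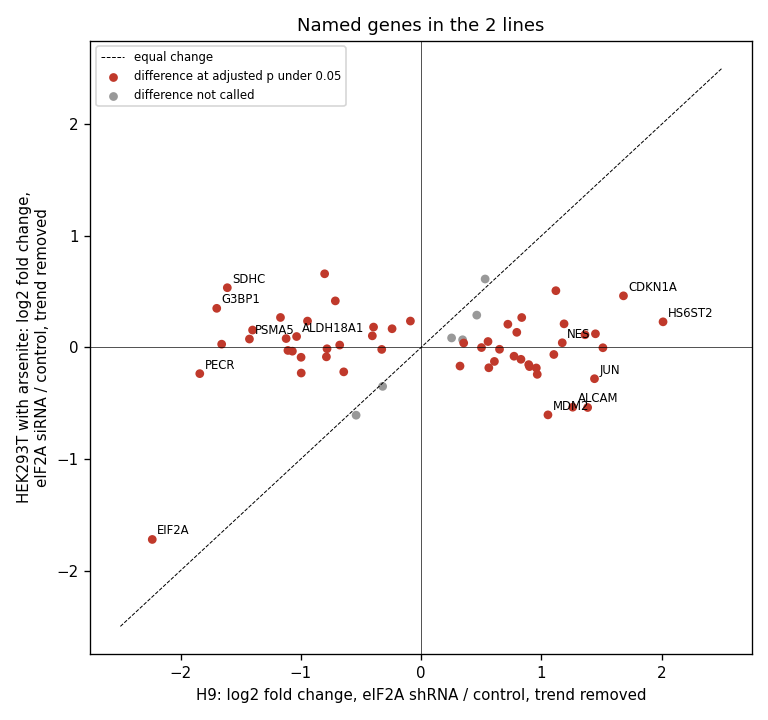
Log2 change with the trend removed in H9 (horizontal axis) and in HEK293T with arsenite (vertical axis) for 61 named genes at 5 CPM or more in both lines; red points were called for the difference and the dashed line marks equal change. EIF2A lies low in both lines (-2.23 and -1.72), and most other genes lie near 0 in HEK293T.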

How the data were processed

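Per the labels' protocols, TRIzol RNA went into TruSeq Stranded mRNA libraries. The submitters' processing notes name cutadapt, STAR 2.5.2b and hg19. The authors deposited raw counts for 19305 RefSeq accessions, and the 5 special rows were left out. How reads were counted, and on which strand, is not given, so overlapping antisense genes may share counts.

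Counts of the 4 H9 libraries were fitted alone with edgeR 4.0.16 in R 4.3.3 (filterByExpr, TMM, robust quasi-likelihood F test, two-sided, 2 residual degrees of freedom, Benjamini-Hochberg adjustment over all genes tested). In each library a loess surface (span 0.3) of deviations from the gene's mean over GC content and log2 transcript length, fitted on genes above 1 CPM, entered as an offset. GC content and length are medians over complete GENCODE v29 models of the gene. They come from GRCh38, so no coordinates are given. A total of 240 accessions had no length. The fit was tested on counts simulated from its own trend and spread. Such counts cannot test the choice of reference or the spread estimated from so few libraries. The difference between the lines used all 8 libraries.

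The members, lists and rules were chosen with earlier results of these data known. Named genes are EIF2A, the 12 largest rises and falls (mean of at least 5 CPM, called also as measured, libraries not overlapping), up to 4 called members of a list by size of change, 18 genes taken whatever their test, the 5 largest differences between the lines in each direction, and up to 5 genes each way that turned direction without the trend. The rule took 240 names. The text names a part of them. Some items, among them 1 list, are not reported here. That choice, which favours names that rest less on the reference, and the coding-length reference were made after the data had been seen, as was the source of GC content and length: the single linked transcript and the median of basic transcripts were tried first, and left because some of their lengths were faulty (extended ends, partial models). Alternatives were no trend removal, GC content or length alone, 200 nearest genes, other scalings, DESeq2 1.42.0, limma-voom 3.58.1, other filters, all 8 libraries, a block by set number, leaving out each library, and an adjusted p under 0.01.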

Additional observations from a re-analysis of the deposited data

Results flagged for a closer look

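The change differed between H9 and HEK293T for 5797 of 14496 genes, by a test of the difference itself. At 5 CPM or more in both lines, the largest differences towards H9 were those of NPIPB3 (1.92 on the log2 scale), ALCAM (1.80), HS6ST2 (1.78), JUN (1.72) and MDM2 (1.66). The largest in the opposite direction were those of SDHC (-2.15), GTF2H5 (-2.12), G3BP1 (-2.05), CMC1 (-1.95) and NIT2 (-1.88). SDHC, GTF2H5, CMC1 and NIT2 are among the falls in H9 that became smaller by more than 1.5 times with coding length in place of transcript length. EIF2A differed by -0.51 with the trend removed, a size that depends on that removal. Reads without a counted feature, which no test used, made up at least 20.63% of the listed reads in the eIF2A shRNA libraries of H9 and at most 18.84% in its controls.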

How the results depend on the processing

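The number of genes called at least 1.5-fold was 1896 as reported, 4949 without trend removal, 4573 with transcript length alone and 1220 with a minimum of 5 CPM in 2 libraries, which tests fewer genes. Leaving out each library in turn gave 1699 to 1861 such genes, 6138 to 6560 called genes of any size (7374 as reported), 9945 to 10040 as measured, 4922 to 5896 for the difference between the lines, and -2.29 to -2.18 for EIF2A.

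Genes that turned direction without trend removal were NCBP1 (0.92), SLITRK5 (0.91), EIF2S1 (0.70), FZD3 (0.67), DPPA4 (0.11), STT3A (0.0023) and BAX (-0.16). With length alone EIF2S1 stood at 0.49, NCBP1 at 0.41, DPPA4 at 0.038, RPS6 at 0.024, COL6A1 at -0.053 and COL1A1 at -0.16. With GC content alone EIF4E stood at -0.36 and DDIT3 at -0.053. With the single transcript linked to each accession EIF4E stood at -0.84, FGF2 at -0.16, SRSF1 at -0.12 and the median of metallothioneins and zinc transporters at -0.00313. The median of the neural markers was 0.057 with the 5 CPM minimum. The cause was not tested. Of 87 genes named besides EIF2A, 64 kept their direction and side of the threshold in every alternative, and 77 in every one that removed a trend of both GC content and length. The names are a part of those the rule takes and were chosen with these values known, so these counts do not stand for the rest.

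The set numbers did not pair the libraries (correlation of their deviations 0.00). With the set number as a block, 7459 genes were called, 1896 of them at least 1.5-fold, 10571 as measured and 5661 for the difference between the lines, with EIF2A at -2.23. With 2 libraries a group, the spread of a gene rests on 2 residual degrees of freedom and on other genes. Genes near 1 CPM, such as CER1, TGFBR3 and KLF4, rest on few reads.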
